A study of Mus musculus with 14 samples.

Results

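The genes described here are 40 cyclin, replication and mitosis genes out of 24054 genes in each table. They were chosen by gene symbol for their known function, but with earlier results of these data known. They comprise 5 G1 cyclins and their kinases, 5 G1 brakes and E2F factors, 4 S phase cyclins and kinase, 9 genes of replication licensing, 4 of DNA synthesis and nucleotide supply, 5 mitotic cyclins and entry kinases and 8 genes of the spindle checkpoint, chromosomes and mitotic exit. Low-input RNA sequencing was performed on 14 libraries of mouse embryonic stem (ES) cells and their derivatives. All 40 genes passed the filter on low counts.

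In the con groups (Foxa2-Venus-KO/+) a nuclear Venus reporter replaced the coding region of 1 allele of Foxa2, a pioneer transcription factor of endoderm, and in the ko groups (Foxa2-Venus-KO/Foxa2-Venus-KO) it replaced both. All d0 and d3 cells therefore carried at least 1 Venus allele, read from the Foxa2 promoter. The groups d0con and d0ko (2 libraries each) were ES cells kept 1 day without LIF on red-fluorescent feeder fibroblasts and sorted as Cherry-negative. The groups d3con and d3ko (3 libraries each) had 3 days on feeders secreting Wnt3a with 12 ng/ml Activin A and were sorted as Venus-positive. Each genotype was 2 clones: C59 (replicates 1 and 3) and C63 (replicate 2) for con, C9 (replicates 1 and 3) and C17 (replicate 2) for ko, and replicate 3 exists at day 3 only. Cells of day 0 and day 3 thus differed in culture and in sort as well as in time. Venus-negative cells (d2-FVFn, 2 libraries) and Venus-positive cells (d2-FVFp, 2 libraries) were sorted from the lentiviral TetON-Foxa2-Venus ES line T119, made in Sox17-Cherry homozygous cells, and both had 40 ng/ml doxycycline for 48 h with LIF and serum and no feeders. The study used these groups to ask what the loss of Foxa2 changes in endoderm differentiation and what its induction changes in ES cells.

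A cell enters the cycle when D cyclins with Cdk4 and Cdk6, and then cyclin E with Cdk2, inactivate the retinoblastoma family and free the E2F factors, which switch on genes for DNA replication. The Mcm helicase is loaded on origins by Cdc6 and Cdt1, and geminin blocks a second loading. Mitotic genes come on later under MuvB complexes, and mouse ES cells are known for a short G1 phase and high cyclin E. In RNA from a sorted population, a smaller share of cells in a phase and less transcript in each cell cannot be told apart.

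The promoters of these genes were read because E2F and CHR elements are known to mark genes of the S phase and of mitosis. RefSeq windows from 250 bases before to 50 bases after the start (build GRCm38.p6) were matched for 32 of the 40 genes, and the first listed window was used for the 3 genes with several. Motif words were searched on both strands. The E2F words were TTTCCCGC, TTTCGCGC, TTTGCCGC and TTTGGCGC. The cell cycle homology region (CHR), a MuvB element, was TTTGAA, and the CCAAT box, known as a site of NF-Y, was CCAAT. An E2F word was present in 6 of 11 windows of licensing and synthesis genes (54.5%), in 1 of 12 windows of mitosis genes (8.33%) and in 2.83% of all 16781 windows. The CHR word was present in 9 of 12 mitosis windows (75%), in 1 of 11 licensing and synthesis windows (9.09%) and in 15.7% of all windows. CCAAT was found in 8 of 11 (72.7%), 11 of 12 (91.7%) and 38.9%, in the same order. Over all 32 windows of the 40 genes, E2F words were in 10 (31.2%), CHR words in 11 (34.4%) and CCAAT in 22 (68.8%). Among genes described below as lower in d3con, E2F words were in 5 of 12 windows (41.7%), CHR words in 2 of 12 (16.7%) and CCAAT in 7 of 12 (58.3%). Among those lower in d2-FVFp, E2F and CHR words were in 2 of 8 each (25%) and CCAAT in 8 of 8. Differences of these sets from all 32 windows were not tested. A match is a string of letters and was not tested for binding. Matches of different words overlapped in 1 gene, Mcm7.

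The windows below are shown because they hold these words close to the start of genes named below. They lie at chr8:75109349-75109467 (Mcm5, plus strand), chr1:128359706-128359865 (Mcm6, minus strand), chr12:24708094-24708253 (Rrm2, plus strand), chr10:128705052-128705211 (Cdk2, minus strand), chr10:69352913-69353072 (Cdk1, minus strand) and chr4:118437344-118437503 (Cdc20, minus strand). Each is written 5′ to 3′ on the strand of its gene, from base -160 to the last base before the earliest annotated start, and capitals mark the E2F, CHR and CCAAT words on either strand.
Mcm5: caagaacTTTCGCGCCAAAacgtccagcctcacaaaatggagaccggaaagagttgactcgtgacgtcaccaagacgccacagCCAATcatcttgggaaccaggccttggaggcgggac
Mcm6: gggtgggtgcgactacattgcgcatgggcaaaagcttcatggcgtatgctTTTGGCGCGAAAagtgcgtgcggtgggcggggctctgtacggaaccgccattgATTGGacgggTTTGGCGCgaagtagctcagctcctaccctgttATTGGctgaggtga
Rrm2: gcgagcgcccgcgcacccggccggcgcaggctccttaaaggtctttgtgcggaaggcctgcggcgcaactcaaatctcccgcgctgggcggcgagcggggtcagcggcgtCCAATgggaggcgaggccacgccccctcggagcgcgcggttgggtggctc
Cdk2: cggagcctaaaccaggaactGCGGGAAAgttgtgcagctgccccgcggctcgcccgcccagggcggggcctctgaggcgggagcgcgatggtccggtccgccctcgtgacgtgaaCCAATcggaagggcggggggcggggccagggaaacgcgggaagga
Cdk1: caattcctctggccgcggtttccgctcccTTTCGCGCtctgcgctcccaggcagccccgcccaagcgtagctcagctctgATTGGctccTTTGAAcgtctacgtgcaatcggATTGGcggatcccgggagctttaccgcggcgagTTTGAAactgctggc
Cdc20: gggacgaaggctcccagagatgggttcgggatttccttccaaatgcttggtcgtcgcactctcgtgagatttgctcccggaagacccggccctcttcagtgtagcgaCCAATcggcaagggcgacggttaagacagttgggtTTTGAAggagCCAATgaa
In Mcm5 the capitals hold E2F words on both strands, overlapping, at -153 and -149, and a CCAAT word at -77. In Mcm6 they hold 3 E2F words and 2 CCAAT words. Rrm2 has a CCAAT word at -50 and no E2F word in the window. Cdk1 has an E2F word at -131 and CHR words at -71 and -15, and Cdc20 has a CHR word at -18 between CCAAT words at -53 and -8.

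**Figure D1:**
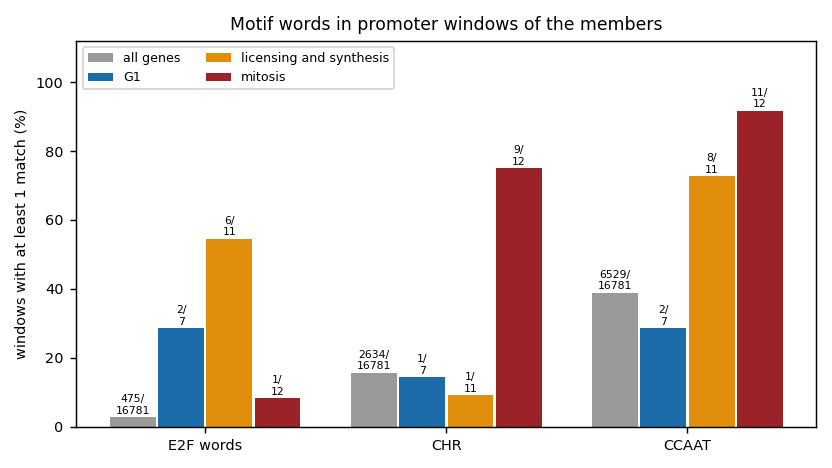
Share of RefSeq promoter windows (y axis, %) with at least 1 match to each word (x axis), for all genes and for the G1, licensing and synthesis, and mitosis genes, with the counts printed over the bars. E2F words were most frequent in the licensing and synthesis genes (54.5%) and CHR words in the mitosis genes (75%).

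Facts of the whole series that touch these results are as follows. Library totals were 14142788 to 27278237 expected counts, and the lowest count of any of the 40 genes in any library was 35. Foxa2 was at 34.8 to 58.6 TPM (a transcript level per length and depth) in d3con and 0.11 to 0.19 TPM in d3ko, and at 2.01 and 2.99 TPM in d2-FVFn against 160 and 169 TPM in d2-FVFp. From the gene and effective lengths in the tables, d3con 1 and d3ko 1 appear to have been quantified as 75-base reads and the rest as 50-base reads, whereas the methods give 50-base reads for all, so the 75-base libraries are named so by inference. Over 6 pluripotency markers (Pou5f1, Nanog, Sox2, Klf4, Zfp42 and Dppa5a) the summed level was 562 to 985 TPM in d3con, but 15400, 2670 and 17400 TPM in d3ko 1, 2 and 3, against 13800 to 15700 TPM at day 0. Most of these day 0 and d3ko sums was Dppa5a (14200, 1867 and 15543 TPM in d3ko). Pou5f1 was at 522, 501 and 944 TPM in d3ko, below its 1335 to 1467 TPM at day 0, and at 63.5, 319 and 59.7 TPM in d3con. Over 6 mesoderm markers the sum was highest in replicate 2 of both genotypes, at 169 TPM in d3con 2 (20.6 and 36.3 TPM in d3con 1 and 3) and 309 TPM in d3ko 2 (29.1 and 67.6 TPM in d3ko 1 and 3). Over 6 endoderm markers (Foxa2, Sox17, Cer1, Gata4, Gata6 and Hhex) it was 792 to 988 TPM in d3con and 30.1 to 161 TPM in d3ko. Over 10 fibroblast markers it was 16.1 and 18.8 TPM in d0con, 46 and 158 TPM in d0ko, 72.8 to 322 TPM in d3con, 166 to 376 TPM in d3ko and 4.35 to 6.66 TPM in the d2 libraries. Of these markers none was at 0 in all libraries of d3con or of d3ko. The part of these markers in the results below was not tested.

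Together the 40 genes took 0.936% and 0.937% of all TPM in d0con, 0.858% and 0.963% in d0ko, 0.569% to 0.82% in d3con and 0.687% to 0.906% in d3ko. In the doxycycline line they took 1.06% and 1.12% in d2-FVFn and 0.862% and 0.925% in d2-FVFp. The share was thus lower in every d3con library than in every d0con library, and lower in both d2-FVFp libraries than in both d2-FVFn libraries, while d3ko overlapped d0ko. By level per transcript length, Cdk4 was the highest of the 40 genes in every library, at 832 to 1204 TPM, and Rb1, at 1.51 to 3.34 TPM, was among the lowest.

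**Figure D2:**
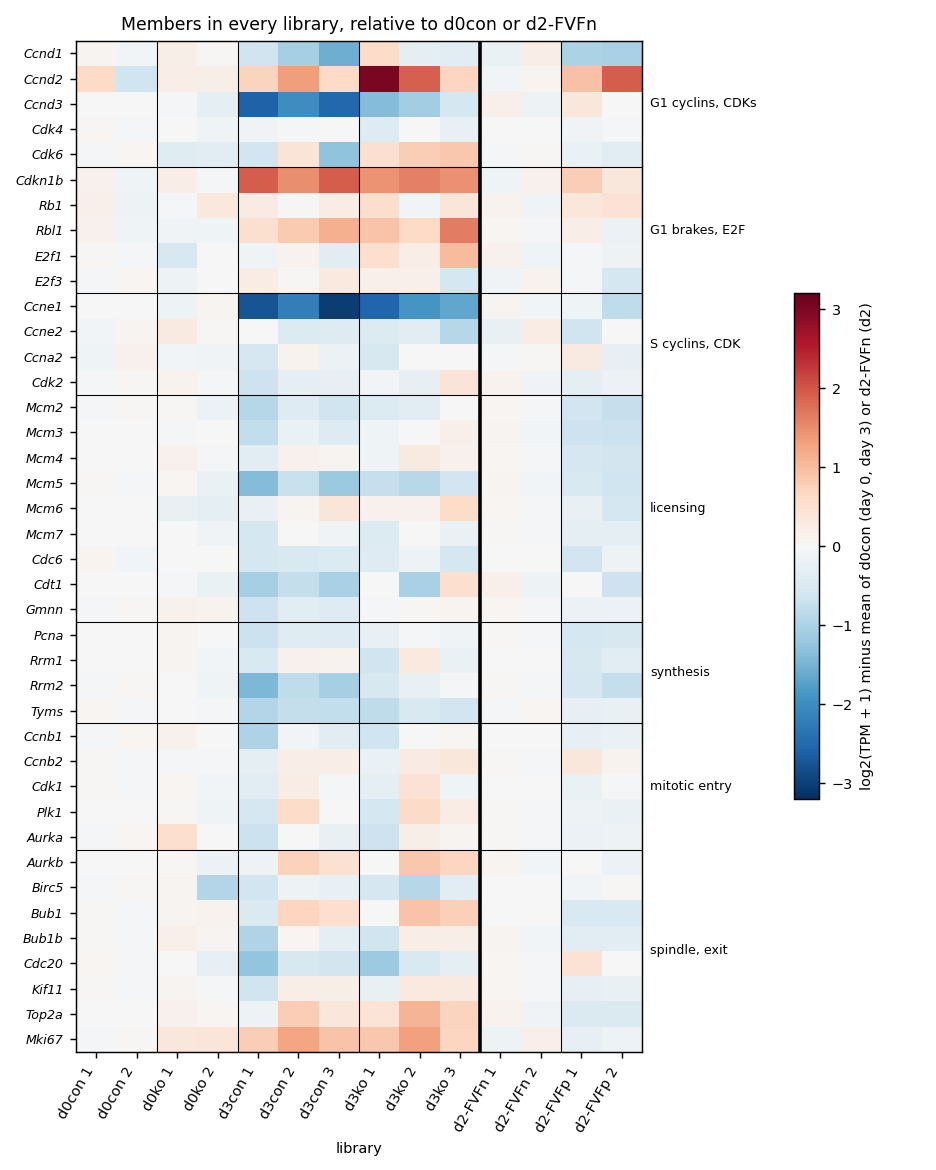
Difference of log2(TPM + 1) from the mean of d0con (day 0 and day 3 libraries) or of d2-FVFn (d2 libraries) for the 40 genes (rows, by role) in all 14 libraries (columns). Ccnd3 and Ccne1 are blue and Cdkn1b is red in all 6 day 3 libraries, and the licensing and synthesis rows are mostly blue in d3con and in d2-FVFp.

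From day 0 to day 3 in control cells, most genes of replication licensing and DNA synthesis fell, as did some G1 and S phase cyclins, while most mitotic genes did not pass the test. Of the 40 genes, 14 were lower in d3con than in d0con and 2 were higher at an edgeR adjusted p under 0.05 (Benjamini-Hochberg over 13899 genes). That is 35% lower and 5% higher, beside 25.2% lower and 27% higher among all genes tested, and 7 lower and 1 higher were past 2-fold, beside 14.6% and 20.6%. The calls were uneven between roles. Of the 13 licensing and synthesis genes 9 were lower and none higher, with a median log2 fold change of -0.71. Of the 10 G1 genes 2 were lower and 1 higher, with a median of -0.12, and of the 4 S phase cyclins and kinase 2 were lower. Of the 13 mitosis genes 1 was lower and 1 higher, with a median of -0.25, and the median over all genes was 0.07. Without the 75-base library pair the licensing and synthesis count was 8 of 13.

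The cyclins Ccne1 and Ccnd3 had the largest falls of the 40 genes. Their genes lie on chromosome 7 at 38097984 to 38107490 and on chromosome 17 at 47505051 to 47599689 (GRCm38). Ccne1, cyclin E1, was at 235 and 233 TPM in d0con and at 33.4, 50 and 27.5 TPM in d3con. All d3con libraries lay far below both d0con libraries, which gave -2.87 ± 0.29 (log2 fold change ± SE, edgeR adjusted p = 0.000231). Ccnd3, cyclin D3, was at 439 and 445 TPM in d0con and at 73.1, 111 and 76.5 TPM in d3con. The groups did not overlap, and the change was -2.55 ± 0.25 (edgeR adjusted p = 0.000222). Ccnd1, cyclin D1, was far lower in level, at 30.1 and 26.6 TPM in d0con and 18, 13 and 8.86 TPM in d3con. Its fall of -1.28 ± 0.37 on the log2 scale (edgeR adjusted p = 0.0181) lost its call without d0con 1 (adjusted p = 0.0897), d0con 2 (0.0586) or d3con 3 (0.052). Cdk2, the kinase partner of cyclin E, changed by -0.60 ± 0.19 (edgeR adjusted p = 0.0286), and lost its call without d0con 1 (adjusted p = 0.0897), d0con 2 (0.132), d3con 1 (0.0985), d3con 3 (0.0502) or the 75-base pair (0.114). Ccnd2, Ccne2, Ccna2, Cdk4 and Cdk6 did not pass the test, with log2 fold changes of 0.73, -0.47, -0.40, -0.26 and -0.58.

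The G1 brake Cdkn1b moved the other way. It encodes p27Kip1, an inhibitor of cyclin E and Cdk2, and was at 3.35 and 2.6 TPM in d0con and 14.1, 10.1 and 14.2 TPM in d3con. Every d3con library was above both d0con libraries, a rise of 1.90 ± 0.28 on the log2 scale (edgeR adjusted p = 0.00084). The pocket protein genes Rb1 and Rbl1 and the factors E2f1 and E2f3 did not pass the test. Rbl1, which encodes p107, was the closest of these, with 0.73 ± 0.28 (edgeR adjusted p = 0.0534), and passed without d3con 1 (edgeR adjusted p = 0.0471) and in 5 other alternative fits, DESeq2 among them (adjusted p = 0.0374).

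Among licensing genes, Mcm5, a subunit of the replicative helicase, was at 543 and 517 TPM in d0con and at 203, 323 and 231 TPM in d3con. Each d3con library was lower than both d0con libraries, with -1.28 ± 0.19 (edgeR adjusted p = 0.000849). Its sister subunits differed from it in size, with -0.85 ± 0.16 for Mcm2 (edgeR adjusted p = 0.00269) and -0.67 ± 0.15 for Mcm3 (edgeR adjusted p = 0.00525), while Mcm4, Mcm6 and Mcm7 had -0.24, -0.11 and -0.42 and did not pass the test. Mcm7 passed without d3con 2 (edgeR adjusted p = 0.0362), by DESeq2 (adjusted p = 0.0338) and in 2 further fits. Cdc6, the loader, was at 46.4 and 41.3 TPM in d0con and 29.4, 31.2 and 31.8 TPM in d3con. It lay lower in all d3con libraries, with -0.71 ± 0.13 (edgeR adjusted p = 0.00246). Gmnn, which encodes the licensing inhibitor geminin, had -0.70 ± 0.12 (edgeR adjusted p = 0.00137), so the loader and the inhibitor of loading were both lower. Cdt1, the other loader, had -1.16 ± 0.35 (edgeR adjusted p = 0.0207), and lost its call without any 1 of d0con 1, d0con 2, d3con 1 and d3con 3 (adjusted p = 0.0761, 0.0848, 0.0574 and 0.0636) or without the 75-base pair (0.0803).

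Of the 4 genes of DNA synthesis and nucleotide supply, 3 were lower in transcript level. Rrm2, the regulated subunit of ribonucleotide reductase, was at 487 and 508 TPM in d0con and 182, 283 and 240 TPM in d3con. The d3con libraries were all lower, with -1.30 ± 0.17 (edgeR adjusted p = 0.000559), while its partner subunit Rrm1 had -0.27 ± 0.25 and did not pass the test. Tyms, thymidylate synthase, was at 82.8 and 75.9 TPM in d0con and 41.2, 46.7 and 45.6 TPM in d3con, without overlap. Its change was -1.04 ± 0.12 (edgeR adjusted p = 0.000345), and Pcna, the sliding clamp, had -0.71 ± 0.11 (edgeR adjusted p = 0.00105). The calls of Ccne1, Ccnd3, Cdkn1b, Mcm2, Mcm3, Mcm5, Cdc6, Gmnn, Pcna, Rrm2 and Tyms were kept in all 15 other fits of this comparison.

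Mitosis genes were less uniform. Cdc20, an activator of the anaphase-promoting complex, was at 642 and 594 TPM in d0con and 255, 431 and 410 TPM in d3con. It was lower in every d3con library, with -0.98 ± 0.25 (edgeR adjusted p = 0.011), and lost its call without d0con 1 (adjusted p = 0.065). Mki67, which encodes the proliferation antigen Ki-67, was at 15.4 and 16.2 TPM in d0con and 27.9, 39.5 and 30.4 TPM in d3con. It rose by 0.84 ± 0.20 on the log2 scale (edgeR adjusted p = 0.00731) and lost its call without d0con 1 (adjusted p = 0.0595). The 11 other mitosis genes had log2 fold changes between -0.65 (Ccnb1) and 0.18 (Aurkb). The 75-base library d3con 1 was the lowest of the 3 d3con libraries for Bub1, a spindle checkpoint kinase, at 38.5 TPM against 86.2 and 76.7 TPM. Over the 13 mitosis genes its mean log2(TPM + 1) was 6.93, against 7.73 and 7.49. The fibroblast marker sum of d3con 1 was 322 TPM, against 72.8 and 239 TPM in d3con 2 and 3. The part of read length or of these markers in this was not tested. Without the 75-base pair Bub1 was higher in d3con (0.41 ± 0.12, edgeR adjusted p = 0.0322) and Ccnb1, cyclin B1, lower (-0.42 ± 0.14, edgeR adjusted p = 0.0454). Ccnb1 missed the threshold with all libraries (edgeR adjusted p = 0.0538) and passed it in 6 alternative fits, DESeq2 (adjusted p = 0.0274) and the fit without d3con 2 (0.0225) among them. Bub1b, Ccna2 and Cdk6 passed only in the fit without d3con 2 (edgeR adjusted p = 0.0404, 0.0416 and 0.0183).

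In Foxa2-null cells the same step gave fewer calls. Of the 40 genes, 7 were lower in d3ko than in d0ko (17.5%, beside 14.1% of all genes) and 2 were higher (5%, beside 15.9%). Past 2-fold, 1 was lower and 2 were higher, beside 5.72% and 11.6% of all genes. The share of lower calls was thus near the background and that of higher calls under it, and the median was -0.17. Ccne1 was at 208 and 250 TPM in d0ko and 39.5, 62.9 and 73.1 TPM in d3ko. As in control cells the groups were far apart, with -2.14 ± 0.28 (edgeR adjusted p = 0.00162), and the call was kept in all 16 other fits of this comparison. Tyms (-0.79 ± 0.12, edgeR adjusted p = 0.0026) also kept its call in all 16 other fits. Cdkn1b was at 3.56 and 2.86 TPM in d0ko and 9.74, 11.1 and 9.85 TPM in d3ko. Its rise of 1.5 ± 0.27 (edgeR adjusted p = 0.00518) lost its call without d0ko 2 (adjusted p = 0.0577).

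The remaining calls in d3ko against d0ko rested on few libraries. Calls over all genes also became fewer without d0ko 1 and without d0ko 2, so the loss in those fits was general. Ccnd3 (-1.0 ± 0.25, edgeR adjusted p = 0.0163) lost its call without d0ko 1 (adjusted p = 0.133), d0ko 2 (0.0542) or the 75-base pair (0.0575). Ccne2, cyclin E2 (-0.93 ± 0.25, edgeR adjusted p = 0.0216), lost it without d0ko 1 (adjusted p = 0.16) or d0ko 2 (0.0654). Mcm5 (-0.83 ± 0.19, edgeR adjusted p = 0.0118) lost it without d0ko 1 (adjusted p = 0.115). Cdc6 (-0.55 ± 0.13, edgeR adjusted p = 0.015), Rbl1 (1.14 ± 0.29, edgeR adjusted p = 0.0174) and Pcna (-0.37 ± 0.11, edgeR adjusted p = 0.0337) each lost it without d0ko 1 (adjusted p = 0.116, 0.112 and 0.217) and without d0ko 2 (adjusted p = 0.0718, 0.107 and 0.109). For Pcna the call was also lost without d3ko 1 (edgeR adjusted p = 0.072) and with the clone as a block (adjusted p = 0.0682). The replicate number was also used as a block across both genotypes, which set replicates 1 and 3 of a clone apart. With it 4 genes were higher in place of 2, beside 15.2% of all genes. The additions were Ccnd2 (2.15 ± 0.56, edgeR adjusted p = 0.0291) and Mki67 (0.54 ± 0.15, edgeR adjusted p = 0.0324). That block also called Cdc20 lower (adjusted p = 0.0438). With the clone itself as a block none of these 3 genes was called (edgeR adjusted p = 0.0915, 0.0687 and 0.113 for Ccnd2, Mki67 and Cdc20). Leaving out 1 library gave 0 to 4 genes higher and 2 to 9 lower. The extremes were the fits without d0ko 2 and d3ko 3 for higher calls and without d0ko 1 and d3ko 3 for lower calls. In the fit without d3ko 3 the shares over all genes were 17.8% higher and 16.5% lower. Without d3ko 3, Ccnd2 (2.46) and Mki67 (0.59) were called higher and Mcm2 (-0.49) and Cdc20 (-0.83) lower, and without d3ko 2, E2f1 (0.96) was called higher and Cdk4 (-0.43) lower. Without the 75-base pair 3 mitosis genes were called higher, Aurkb (0.69 ± 0.15, edgeR adjusted p = 0.0237), Bub1 (0.58 ± 0.12, edgeR adjusted p = 0.0223) and Top2a (0.65 ± 0.18, edgeR adjusted p = 0.0453). Bub1 was at 53.6 TPM in the 75-base library d3ko 1, against 101 and 90.1 TPM in d3ko 2 and 3.

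**Figure D3:**
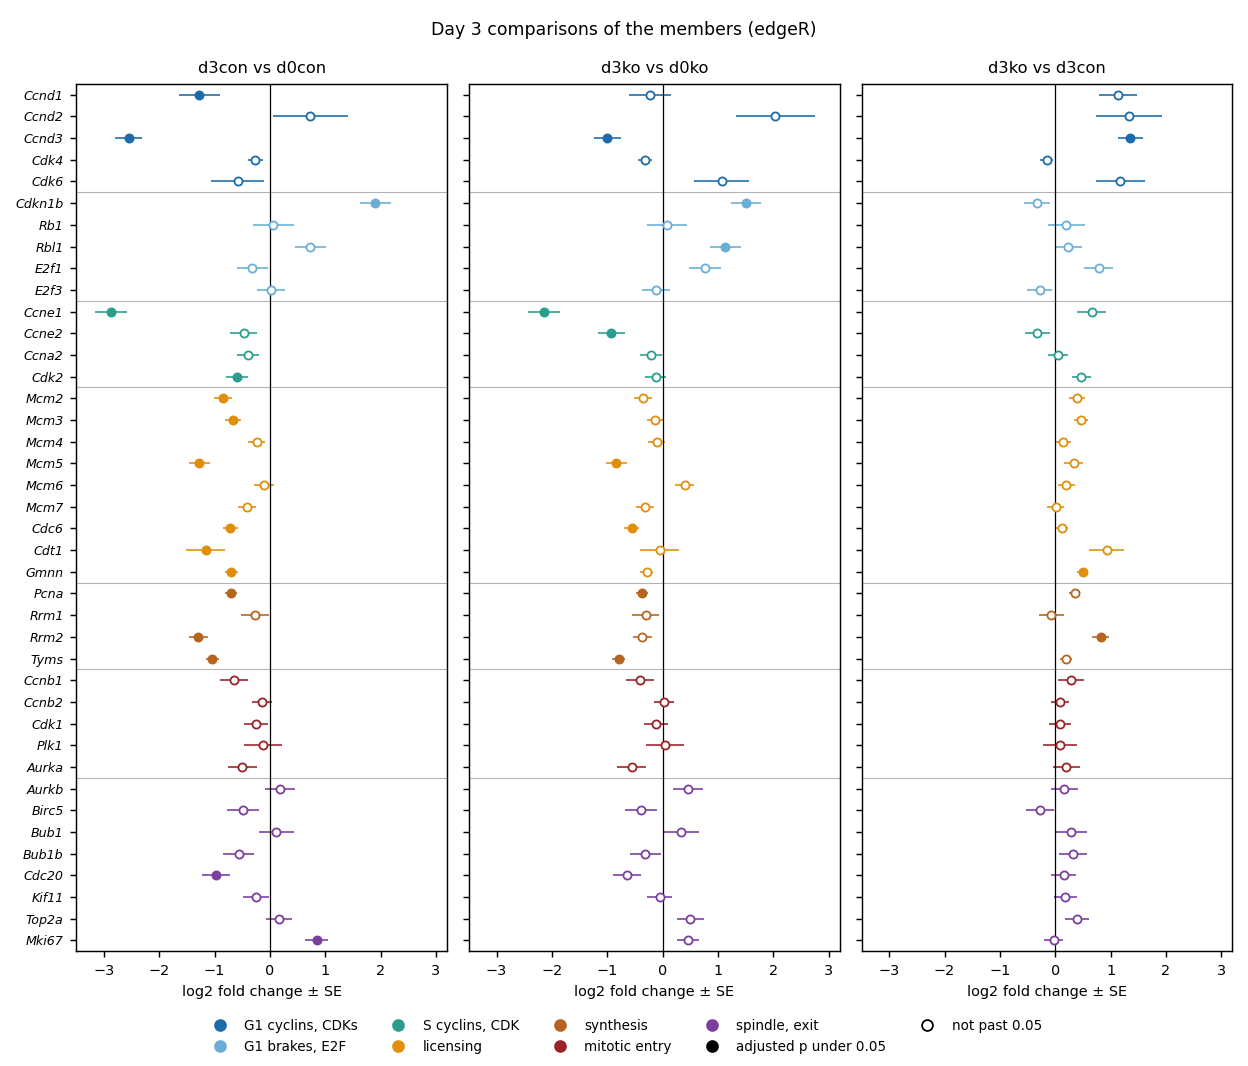
Log2 fold change ± SE (x axis) of the 40 genes (y axis, coloured by role) in 3 edgeR comparisons, with filled points past an adjusted p of 0.05. Licensing and synthesis genes lie left of 0 in d3con vs d0con (9 of 13 called) and 4 of 13 are called in d3ko vs d0ko, where Mcm6 lies right of 0 at 0.40.

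Between genotypes at day 3, d3ko exceeded d3con in 3 of the 40 genes (7.5%, beside 5.66% of all genes) and none was lower (beside 4.89%). Past 2-fold, 1 was higher and 0 lower, beside 4.75% and 3.51% of all genes. At an unadjusted p under 0.05, 12 genes were higher and 0 lower, beside 15.1% and 12.8% of all genes. By DESeq2, 9 were higher and 0 lower, beside 10.3% and 8.09% of all genes. The log2 fold change was positive for 33 of 40, with a median of 0.20 beside 0.02 over all genes. Ccnd3 was at 169, 202 and 297 TPM in d3ko, above all 3 d3con libraries (73.1 to 111 TPM) and below both d0ko libraries (432 and 357 TPM). Its difference was 1.36 ± 0.23 (edgeR adjusted p = 0.0124). Rrm2 was at 348, 421 and 475 TPM in d3ko, also without overlap with d3con, with 0.82 ± 0.16 (edgeR adjusted p = 0.0165). Gmnn was at 221, 236 and 245 TPM in d3ko against 145, 179 and 174 TPM in d3con, with 0.49 ± 0.10 (edgeR adjusted p = 0.0216). None of the 3 kept its call without d3con 1 (edgeR adjusted p = 0.0561, 0.0661 and 0.0909 for Ccnd3, Rrm2 and Gmnn). The same held without d3con 3 (edgeR adjusted p = 0.0651, 0.0766 and 0.0819). Gmnn also lost its call without d3ko 3 (edgeR adjusted p = 0.0568). Over all genes the share higher fell as well, from 5.66% to 0.552% without d3con 1 and 0.0652% without d3con 3. It was 1.99% without d3ko 3. With replicates 1 and 3, which share a clone, summed to leave 2 clones a group, none of the 3 was called (edgeR adjusted p = 0.0975, 0.105 and 0.125) and 0% of all genes were higher. Without d3con 2, Cdk6 (1.86 ± 0.34, edgeR adjusted p = 0.0151) and Mcm3 (0.59 ± 0.13, edgeR adjusted p = 0.0267) were called as well. With the 75-base pair left out none of the 40 was called, beside 0% of all genes higher and 0.00734% lower. The log2 differences of Ccnd3, Rrm2 and Gmnn were then 1.41, 0.78 and 0.45.

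The library d3ko 2, of clone C17, stood apart from the other d3ko libraries. It had less Dppa5a (1867 TPM), Zfp42 and Sox2 than the other d3ko libraries, while its Pou5f1 (501 TPM) and Nanog (240 TPM) were close to those of d3ko 1 (522 and 254 TPM), and the highest mesoderm sum (309 TPM). This library also had the highest endoderm sum of d3ko, 161 TPM, against 81.8 and 30.1 TPM in d3ko 1 and 3. Over 516 genes of chromosome 8 it had a median log2 difference of -0.43 from the other d3ko libraries, beside -0.07 for the day 0 library of that clone against the other. Mcm5 and Cdt1 lie on chromosome 8, and their log2 differences of d3ko 2 from the other d3ko libraries were -0.28 and -1.35. Cdt1 was at 148, 70.7 and 209 TPM in d3ko 1, 2 and 3, against 69.1 to 85.9 TPM in d3con. For Cdt1 only d3ko 2 lay in the range of d3con. The difference of d3ko from d3con was 0.93 ± 0.32 with it (edgeR adjusted p = 0.0979) and 1.26 ± 0.16 without it (edgeR adjusted p = 0.00106). Without d3ko 2 the count of higher genes went from 3 to 9 of the 40, while the share over all genes went from 5.66% to 14.6%. The additions were Cdt1, Ccnd1 (adjusted p = 0.0284), E2f1 (0.0172), Cdk2 (0.0209), Mcm3 (0.036) and Pcna (0.0457). Birc5, survivin, was low in both C17 libraries, at 231 TPM in d0ko 2 and 234 TPM in d3ko 2, against 291 to 470 TPM in the other 8 d0 and d3 libraries.

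The difference between genotypes in the step from day 0 to day 3 was tested by an interaction. No gene of the 40, and 0% of all genes in either direction, passed an adjusted p of 0.05, so that the falls of d3con cannot be called larger than those of d3ko by this test. Foxa2 itself did not pass either (-7.68 ± 0.87, edgeR adjusted p = 0.0544), so a lack of calls here does not show that the genotypes changed alike. At an unadjusted p under 0.05, 6 of the 40 passed, all in the direction of a smaller fall or a larger rise in ko cells, beside 6.78% of all genes in that direction and 6.45% in the other. They were Ccnd3 (1.56 ± 0.36, edgeR adjusted p = 0.153), Rrm2 (0.93 ± 0.25, edgeR adjusted p = 0.178), E2f1, Gmnn, Mcm3 and Cdk6. DESeq2 called 2 in that direction, beside 2.25% of all genes, Ccnd3 (adjusted p = 0.00301) and Rrm2 (0.0211). Without d3ko 2, edgeR called Ccnd3 (adjusted p = 0.0306) and Cdt1 (0.0104), which is 2 of 40 beside 5.48% of all genes.

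At day 0 no gene of the 40 passed between d0ko and d0con, as for 0% of all genes in either direction, and DESeq2 called 0 of the 40. At an unadjusted p under 0.05 none of the 40 passed either, beside 1.09% of all genes higher and 0.317% lower. The log2 differences lay between -0.48 and 0.36, and the widest SE, 0.73, belonged to Ccnd2.

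**Figure D4:**
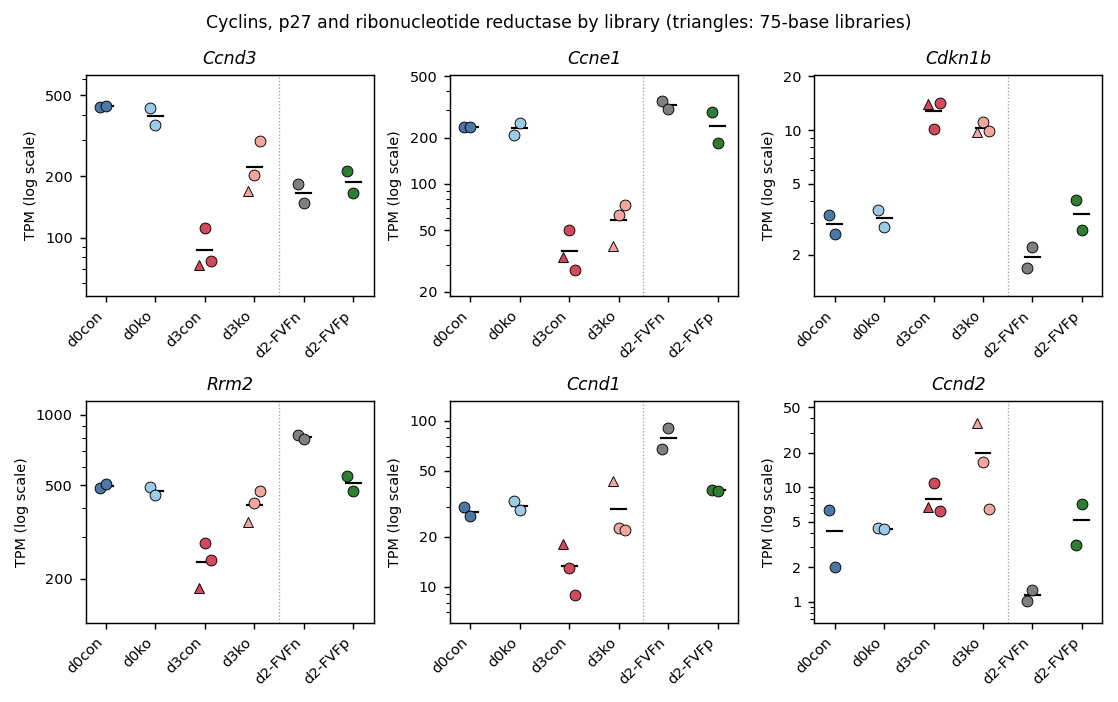
TPM (y axis, log scale) of 6 genes in each library, by group (x axis), with bars at group means and triangles for the 75-base libraries. Ccnd3 and Ccne1 are lower and Cdkn1b higher in all day 3 libraries than in all day 0 libraries, d3ko lies above d3con for Ccnd3 and Rrm2, and Ccnd1 and Ccnd2 move in opposite directions between d2-FVFn and d2-FVFp.

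Induced Foxa2 in ES cells was accompanied by lower replication genes. Of the 40 genes, 10 were lower in d2-FVFp than in d2-FVFn (25%, beside 6.57% of 12943 genes) and 1 was higher (2.5%, beside 9.96%). Past 2-fold, 1 was lower and 1 higher, beside 1.47% and 6.96%. Of the 13 licensing and synthesis genes 7 were lower (53.8%) and all 13 had negative fold changes. Both d2-FVFp libraries lay below both d2-FVFn libraries in 12 of these 13, in 9 of the 13 mitosis genes and in 26 of the 40. The opposite held for 4 of the 40. The share of all genes without overlap was not computed, so these counts have no background to be read against. Of the 13 mitosis genes 2 were lower. The medians were -0.49 and -0.23, beside 0.01 over all genes.

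Of the 6 helicase subunits 4 fell. Mcm2 was at 681 and 629 TPM in d2-FVFn and 429 and 391 TPM in d2-FVFp, with -0.72 ± 0.11 (edgeR adjusted p = 0.00729). Both d2-FVFp libraries were lower than both d2-FVFn libraries, and the same held for Mcm3 (-0.73 ± 0.12, edgeR adjusted p = 0.00864), Mcm4 (-0.62 ± 0.11, edgeR adjusted p = 0.0136) and Mcm5 (-0.60 ± 0.12, edgeR adjusted p = 0.0158). Mcm6 and Mcm7 had -0.45 and -0.33 and did not pass the test (edgeR adjusted p = 0.0643 and 0.0707). Mcm4 was thus called here and not in d3con against d0con. Cdc6, Cdt1 and Gmnn had -0.43, -0.36 and -0.24 and did not pass.

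For nucleotide supply, Rrm2 was at 820 and 791 TPM in d2-FVFn and 551 and 472 TPM in d2-FVFp. The pairs did not overlap, with -0.70 ± 0.12 (edgeR adjusted p = 0.0101). Rrm1 had -0.49 ± 0.11 (edgeR adjusted p = 0.0292) and Pcna -0.58 ± 0.11 (edgeR adjusted p = 0.0152), while Tyms had -0.31 ± 0.12 and did not pass the test. In mitosis, Bub1 was at 99.6 and 101 TPM in d2-FVFn and 71.3 and 71.5 TPM in d2-FVFp, with -0.54 ± 0.11 (edgeR adjusted p = 0.0214). Top2a, the topoisomerase that untangles chromosomes, had -0.52 ± 0.12 (edgeR adjusted p = 0.0306). Both were lower in each d2-FVFp library.

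The D cyclins split. Ccnd1 was at 67.8 and 90.1 TPM in d2-FVFn and 38.4 and 37.8 TPM in d2-FVFp, a fall of -1.10 ± 0.16 on the log2 scale (edgeR adjusted p = 0.00682). Ccnd2, low in level, was at 1.02 and 1.27 TPM in d2-FVFn and 3.12 and 7.18 TPM in d2-FVFp, and rose by 2.12 ± 0.41 (edgeR adjusted p = 0.0163). Ccnd3 was at 184 and 147 TPM in d2-FVFn and 212 and 165 TPM in d2-FVFp. These pairs overlapped (0.14 ± 0.17, edgeR adjusted p = 0.603), so Ccnd3 did not pass here although it had the most significant adjusted p of the 40 genes in d3con against d0con. Ccne1 had -0.50 ± 0.21 (edgeR adjusted p = 0.15) and Cdkn1b 0.75 ± 0.37 (edgeR adjusted p = 0.204), and neither passed.

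With 2 libraries in each group, these calls depended on each d2-FVFn library. Without d2-FVFn 1, 1 gene was lower (Ccnd1) and without d2-FVFn 2, 2 were (Mcm2 and Mcm3), while the share lower over all genes went from 6.57% to 0.704% and 0.8%. The loss of calls was thus general, and Ccnd2 lost its call in both fits (adjusted p = 0.0861 and 0.061). In these fits the log2 fold changes of the 10 lower genes stayed between -1.27 and -0.36, and edgeR adjusted p reached 0.248 (Top2a, without d2-FVFn 1). Without d2-FVFp 1, Rrm1 lost its call (edgeR adjusted p = 0.055) and Ccne1 (-0.86), Mcm6 (-0.60) and Cdt1 (-0.70) were called lower. Without d2-FVFp 2, Cdc6 (-0.67) was called lower and Cdc20 (0.42) higher.

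**Figure D5:**
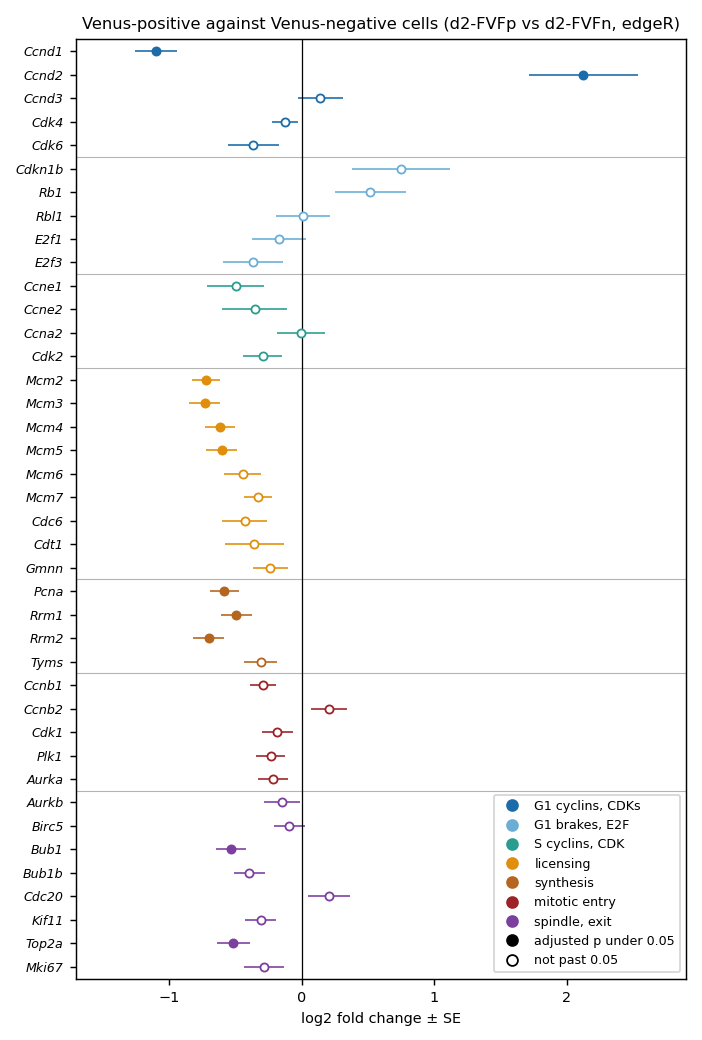
Log2 fold change ± SE (x axis) of the 40 genes (y axis, coloured by role) in d2-FVFp vs d2-FVFn by edgeR, with filled points past an adjusted p of 0.05. All 13 licensing and synthesis genes lie left of 0 (7 called), Ccnd1 lies at -1.10 and Ccnd2 at 2.12.

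The wider cell cycle was read from 96 other genes listed by function, of which 94 were tested in the d0 and d3 libraries and 95 in the doxycycline line. In d3con against d0con 44 were lower (46.8%, beside 25.2% of all genes) and 4 higher (4.26%, beside 27%). Those with the largest falls were Mybl2, the B-Myb factor of MuvB (-3.59 ± 0.64, edgeR adjusted p = 0.00198), E2f8, a repressive E2F (-1.86 ± 0.36, edgeR adjusted p = 0.00271), Rfc5, a clamp loader subunit (-1.75 ± 0.26, edgeR adjusted p = 0.000843), and Rpa2, of the single-strand binding protein (-1.57 ± 0.16, edgeR adjusted p = 0.000235). The 4 that rose were E2f5 (1.42 ± 0.27, edgeR adjusted p = 0.00252), Spc25, Orc3 and Cenpe. By role, 6 of 8 genes of ubiquitin ligases and separase were lower, as were 9 of 14 of origin recognition and firing. Of the CDK switches 5 of 9 were lower, and of the DNA polymerases and fork proteins 10 of 21. Among spindle and midbody genes 3 of 8 were lower, and among kinetochore and checkpoint genes 3 of 10. Differences between these roles were not tested.

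In d3ko against d0ko 14 of the 94 were lower (14.9%, near the 14.1% of all genes) and 2 higher (2.13%, beside 15.9%). The largest falls were those of E2f8 (-1.72), Rfc5 (-0.99), Fen1 (-0.97) and Tfdp1 (-0.89), and the higher genes were Pkmyt1 (0.98), an inhibitory kinase of Cdk1, and Cdc25c (0.82), which removes that inhibition. In d3ko against d3con 10 were higher (10.6%, beside 5.66% of all genes) and none lower (beside 4.89%), the 4 largest being Mybl2 (3.01 ± 0.60, edgeR adjusted p = 0.0182), Cdkn1a (1.27 ± 0.34, edgeR adjusted p = 0.0467), Rpa2 (0.66) and Pole (0.66). Mybl2 was at 283, 73.4 and 559 TPM in d3ko and 29.2 to 46.8 TPM in d3con, so its lowest d3ko library was again d3ko 2. In the interaction and between d0ko and d0con none of the 94 passed.

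In the doxycycline line 23 of the 95 were lower (24.2%, beside 6.57% of all genes) and 3 higher (3.16%, beside 9.96%). The 4 largest falls were Chek1, a checkpoint kinase (-1.0 ± 0.15, edgeR adjusted p = 0.00783), Pola1, of the priming polymerase (-1.0 ± 0.15, edgeR adjusted p = 0.00653), Tfdp2 (-0.79) and Mycn (-0.79), and 13 of the 21 polymerase and fork genes were lower. The 3 that rose were all inhibitors of cyclin-dependent kinases. Cdkn2b, p15, was at 6.87 and 4.21 TPM in d2-FVFn and 35.6 and 41 TPM in d2-FVFp, with no overlap and a rise of 2.75 ± 0.28 (edgeR adjusted p = 0.00211). Cdkn2a rose by 1.79 ± 0.47 (edgeR adjusted p = 0.0408), and Cdkn1a, p21, was at 58.8 and 73.2 TPM in d2-FVFn and 129 and 221 TPM in d2-FVFp, a rise of 1.36 ± 0.25 (edgeR adjusted p = 0.0142). Of the 6 listed inhibitors of this kind 5 were tested.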

How the data were processed

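Low-input RNA (SMARTer v4) was sequenced in 14 libraries of 6 groups. The authors aligned reads with STAR and estimated an expected count and TPM for each gene with RSEM on mm10 (GRCm38), with versions not given in the sources used here, and these values were used as deposited. Expected counts can be fractional where reads are shared between similar transcripts, as was so in at least 1 library for all 40 genes, and were rounded. TPM is relative to each library, so a few abundant genes can shift the others.

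Genes at 1 CPM or more in at least 2 libraries were tested with edgeR 4.0.16 (R 4.3.3), with TMM scaling and two-sided quasi-likelihood tests. The 10 day 0 and day 3 libraries (13899 genes) and the 4 doxycycline libraries (12943 genes) were fitted separately. Calls required a Benjamini-Hochberg adjusted p below 0.05 over all genes, and SE was derived from the F statistic. The fits were tested on simulated data.

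Named with statistics were the called genes of the 40 with the largest changes (up to 12 per direction), those whose call changed with a block or without a library, and up to 4 called pathway genes per direction. The members and lists were chosen with earlier results of these data known. Clones were read from the deposited names and the methods. Same-numbered day 0 and day 3 libraries share a clone. The main fits did not pair them, and blocks on the replicate number or the clone were run as alternatives only. The deviations of these libraries correlated weakly (r = 0.0258 and -0.0069 for con, -0.0403 and 0.0605 for ko). The paper calls the day 0 and day 3 libraries of a group biological replicates, and different clones were necessarily separate cultures. Nothing states whether day 3 libraries of the same clone, or the doxycycline libraries of a group, were separate cultures. The p-values measure the spread between libraries, which may be technical for those libraries. Alternatives were DESeq2 1.42.0, limma 3.58.1 on log2(TPM + 1), median-of-ratios scaling, other filters, thresholds and blocks, and leaving out libraries. The 14142788 to 27278237 counts per library limit precision for the lowest genes. Depth was not equal between groups.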

Additional observations from a re-analysis of the deposited data

How the results depend on the processing

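No called result changed direction in any alternative that was run. Requiring over 2-fold left 1 higher and 7 lower genes of the 40 in d3con against d0con, 1 lower in d3ko against d0ko, 1 higher in d3ko against d3con and 1 lower in d2-FVFp against d2-FVFn. An edgeR adjusted p under 0.01 left 1 higher and 2 lower in d3ko against d0ko, beside 5.71% and 5.74% of all genes. It left 0 higher in d3ko against d3con (beside 0.13%), and 0 higher and 3 lower in d2-FVFp (beside 3.24% and 0.78%). DESeq2 gave 4 higher in d3ko against d0ko, 9 higher in d3ko against d3con and 2 higher in the interaction. Over all genes DESeq2 called 20%, 10.3% and 2.25% higher, in the same order. The replicate block gave 4 higher in d3ko against d0ko, beside 15.2% of all genes. It gave 19 lower in d2-FVFp, where the share lower over all genes also went from 6.57% to 16.4%. The d2 libraries share only a number (r = 0.2835), as do d0ko and d0con (0.1081) and d3ko and d3con (0.5396, 0.2941 and -0.0144 for replicates 1, 2 and 3). Fitting only the groups compared gave 3 lower in d3ko against d0ko, beside 6.05% of all genes. It gave 0 higher in d3ko against d3con, beside 0.0518%. Summing day 3 libraries of a clone also gave 0 higher in d3ko against d3con, beside 0% of all genes. Without the 75-base pair there were 5 higher and 4 lower in d3ko against d0ko, beside 13% and 10% of all genes. In d3ko against d3con there were then 0 higher, beside 0% of all genes. Without clone C17, an alternative added after the data were seen, 7 were higher in d3ko against d3con, beside 11.7% of all genes. Leaving out 1 library gave 1 to 3 higher and 10 to 19 lower in d3con against d0con, 0 to 4 and 2 to 9 in d3ko against d0ko, 0 to 9 and 0 in d3ko against d3con, 0 to 2 and 0 in the interaction, 0 and 0 between day 0 groups, and 0 to 2 and 1 to 12 in d2-FVFp. Where it left an arm with 1 library, that library was assumed to vary like the rest. The shares called over all genes also moved between these fits. Over all genes, limma on log2(TPM + 1) called 4239 higher and 2532 lower in d3con against d0con (3748 and 3498 by edgeR), 2461 and 1408 in d3ko against d0ko (2213 and 1956) and 521 and 731 in d3ko against d3con (786 and 680), with medians of 0.21, 0.16 and 0.01 (0.07, 0.07 and 0.02 by edgeR). The cause of these shifts was not tested. With 2 or 3 libraries a group, small changes of genes such as Ccnd2 were not detectable.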
